A study of Mus musculus with 6 samples.

Results

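*Gata1*, *Gata2*, *Gata3*, *Zfpm1*, *Tal1*, *Lmo2*, *Lyl1*, *Klf1*, *Nfe2* and *Gfi1b*, which encode regulators of erythroid, megakaryocytic and mast cell fate, were followed by RNA-sequencing of mouse acute myeloid leukemia (AML) cells. These 10 genes were chosen by name from the 54532 genes of the deposited table. The leukemias were driven by RUNX1-ETO9a (RE9a), a shortened form of the RUNX1-ETO fusion protein of human AML, delivered to fetal liver cells with a GFP-marked retrovirus and passed on by transplantation into male recipients. *WT Phf6,RE9a* cells carried the floxed *Phf6* allele without Cre (*Phf6 fl/y*), and *VC Phf6,RE9a* cells carried the same allele with *Vav1-Cre*, a Cre that is active in blood cells (*Vav1-Cre;Phf6 fl/y*). All cells were male and GFP+ and were sorted from bone marrow, with 3 libraries per group (replicates 1, 2 and 3 of *WT Phf6,RE9a*, replicates 11, 12 and 13 of *VC Phf6,RE9a*). The labels name neither the age of the mice, nor the passage, nor whether the libraries of a group came from separate leukemias, so p-values measure only the spread between these libraries.

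GATA factors are zinc finger proteins that bind the sequence GATA. GATA2 acts in blood stem and progenitor cells and in mast cells, GATA1 in erythroid cells, megakaryocytes, mast cells and eosinophils, and GATA3 in T cells and innate lymphoid cells. FOG1, the product of *Zfpm1*, binds GATA1 and is needed for red cells and megakaryocytes. The basic helix-loop-helix proteins TAL1 and LYL1 bind DNA at E-boxes with a partner such as the product of *Tcf3*. LMO2, which binds LDB1, joins them to a GATA factor in one complex. KLF1 switches on globin and other red cell genes, NFE2 with a small MAF protein serves globin loci and platelet formation, and GFI1B is a repressor needed for erythroid and megakaryocytic cells.

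RefSeq promoter sequences (GRCm38.p6, the 250 bases before a start site) were found for 8 of the 10 genes, in 10 windows; none was matched for *Lmo2* and *Nfe2*. They were searched on both strands for the GATA letters GATAA, the E-box of TAL1 CAGATG and the NF-E2 letters TGAGTCA, which do not overlap one another. The windows that held a match are printed to show where the letters lie, with the match in capitals and each strand read 5′ to 3′ along the gene. The start sites here are those of RefSeq. The *Klf1* window (chr8:84901732-84901981, plus strand) held TTATC, which is GATAA on the other strand, 80 bases before the start. It also held CAGATG 59 bases before the start. This window runs past the deposited start of *Klf1* (84901928). The *Gfi1b* window (chr2:28621983-28622232, minus strand) held GATAA 119 bases before the start, and the first *Tal1* window (chr4:115056176-115056425, plus strand) held TTATC 205 bases before it.
Klf1: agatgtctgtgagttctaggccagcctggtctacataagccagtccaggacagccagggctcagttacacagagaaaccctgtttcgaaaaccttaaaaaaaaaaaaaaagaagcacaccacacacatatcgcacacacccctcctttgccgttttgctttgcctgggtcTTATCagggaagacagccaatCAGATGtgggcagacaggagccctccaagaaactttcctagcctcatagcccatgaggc
Gfi1b: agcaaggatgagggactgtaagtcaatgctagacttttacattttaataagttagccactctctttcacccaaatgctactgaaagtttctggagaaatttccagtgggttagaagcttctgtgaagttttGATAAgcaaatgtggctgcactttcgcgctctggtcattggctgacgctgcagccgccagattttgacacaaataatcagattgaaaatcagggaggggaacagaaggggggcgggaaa
Tal1: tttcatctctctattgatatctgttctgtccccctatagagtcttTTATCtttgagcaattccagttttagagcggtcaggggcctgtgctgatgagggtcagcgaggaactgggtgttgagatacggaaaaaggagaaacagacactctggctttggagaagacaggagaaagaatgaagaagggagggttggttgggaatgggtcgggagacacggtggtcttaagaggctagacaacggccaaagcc
Of all 32851 windows of this length, 22.6% held GATAA, 14.4% held CAGATG and 4.46% held TGAGTCA on either strand. The windows of *Gata1*, *Gata2*, *Gata3*, *Zfpm1* and *Lyl1* and the second window of *Tal1* held none of these letters. The windows of *Gata1* and *Gata3* and the second windows of *Gata2* and *Tal1* lie inside the deposited spans of these genes. A match is a description of letters and was not tested as a binding site.

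Total counts per library ran from 15675358 to 16817994, and filtering with edgeR's filterByExpr left 14169 genes to test, among them all 10 regulators. Levels of a gene across libraries are given in CPM, the count relative to the library's total after TMM scaling, and levels of different genes are compared only in the deposited FPKM, which divides by gene length. Fold changes are *VC Phf6,RE9a* over *WT Phf6,RE9a* from edgeR's quasi-likelihood test, called at a Benjamini-Hochberg adjusted p under 0.05 over all genes tested. *Phf6* itself had 67.8, 56.1 and 69.1 CPM in *WT Phf6,RE9a* cells and 22.9, 18.3 and 19.7 CPM in *VC Phf6,RE9a* cells (-1.66 on the log2 scale, standard error 0.13, edgeR adjusted p = 9.32e-05), so the targeted gene was lower in each library labelled as deleted. The groups separated on the first principal component, which held 81.0% of the variance, and WT replicate 3 (-60.5) lay nearer to the VC libraries (71.3 to 76.5) than the other WT libraries (-82.0 and -80.6). The contrast was broad, with 44.2% of tested genes called, 21.5% higher and 22.7% lower in *VC Phf6,RE9a* cells, and a median change of 0.01 on the log2 scale over all genes tested.

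Against this background, 6 of the 10 regulators rose in *VC Phf6,RE9a* cells (*Lmo2*, *Gata3*, *Nfe2*, *Klf1*, *Gfi1b* and *Zfpm1*), 2 fell (*Gata2* and *Lyl1*) and 2 did not pass the threshold (*Tal1* and *Gata1*). At a change of at least 2-fold, 4 were higher, where 9.95% of all genes tested were, and 0 were lower, where 11.5% were. The median log2 fold change of the 10 genes was 0.69. The libraries of the groups did not overlap for 9 of the 10 genes, 6 above and 3 below, against 57.3% of all genes tested, 28.9% above and 28.4% below. The genes were picked with earlier results of these data known, so these counts describe them and carry no test.

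**Figure D1:**
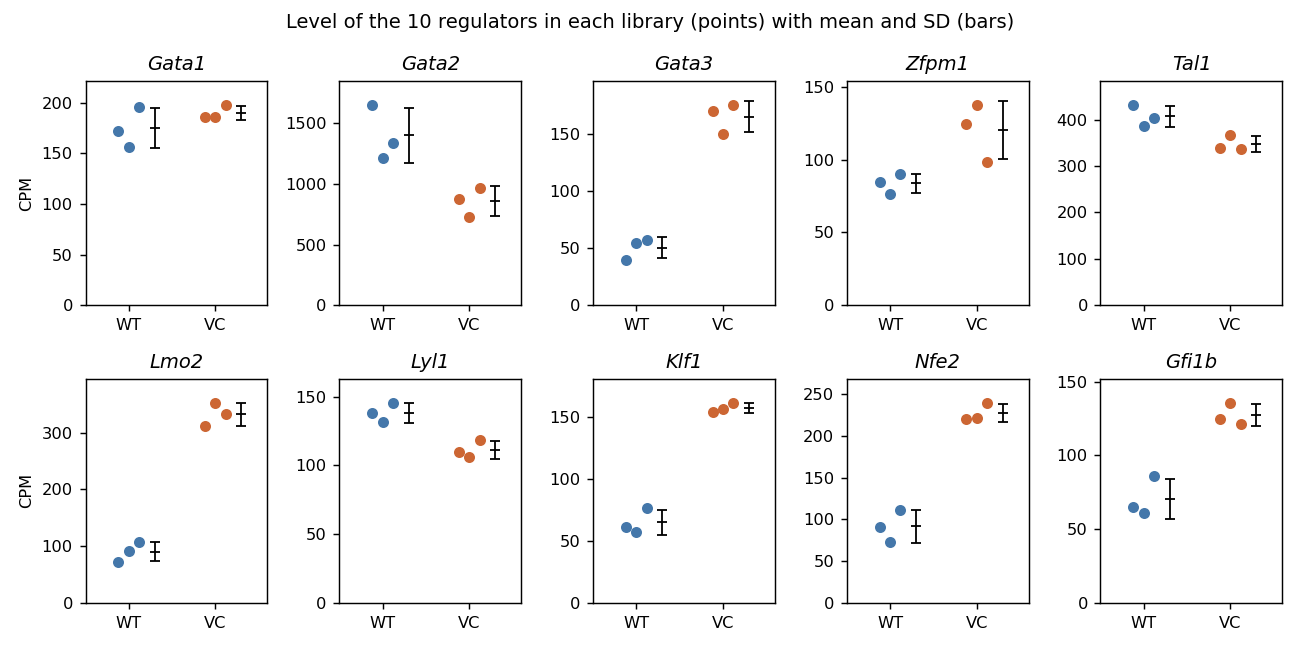
Level of each regulator in CPM (vertical axes, each from 0) in the 3 WT Phf6,RE9a (blue) and 3 VC Phf6,RE9a (orange) libraries, 1 point per library in the order of the replicate numbers, with the mean and SD as bars. The groups overlap for Gata1 alone, Lmo2 goes from 72.8 to 107 CPM up to 311 to 352 CPM and Gata2 from 1215 to 1651 CPM down to 728 to 969 CPM.

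Among the GATA factors, *Gata2* (chromosome 6, 88193891 to 88207032) fell while *Gata3* rose and *Gata1* did not pass the threshold. *Gata2* stood at 1651, 1215 and 1336 CPM in *WT Phf6,RE9a* cells and at 880, 728 and 969 CPM in *VC Phf6,RE9a* cells. All 3 VC libraries lay under all 3 WT libraries, and the highest level was in WT replicate 1. The mean went from 1401 ± 225 to 859 ± 122 CPM (SD, n = 3), which is -0.71 on the log2 scale with a 95% interval from -1.07 to -0.34 (edgeR adjusted p = 0.00869), or 1.63-fold lower.

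*Gata1* (chromosome X, 7959260 to 7978071) had 172, 157 and 196 CPM in *WT Phf6,RE9a* cells and 186, 186 and 197 CPM in *VC Phf6,RE9a* cells. The WT libraries spread on both sides of 2 of the VC libraries, so the groups overlapped. The log2 fold change was 0.12 with a 95% interval from -0.11 to 0.35 (edgeR adjusted p = 0.375), an interval that leaves room for a small change in either direction but not for a 2-fold one.

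*Gata3* (chromosome 2, 9857078 to 9890034) had 39.7, 54.3 and 57.0 CPM in *WT Phf6,RE9a* cells and 170.2, 149.6 and 175.0 CPM in *VC Phf6,RE9a* cells. The groups were far apart, with the lowest VC library above the highest WT library. The level rose 3.28-fold (log2 fold change 1.71, 95% interval 1.37 to 2.05, edgeR adjusted p = 0.000132). Inside the gene's span lie *Gm13256* and *4930412O13Rik* on the opposite strand and *9230102O04Rik* on the same strand, whose own counts were 0 to 9 in WT and 16 to 72 in VC libraries. The lowest count of *Gata3* was 612, and the strand setting of the counting is not given in the sources used here, so reads of *Gata3* and of these genes cannot be told apart where they overlap.

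Markers of cells in which GATA3 is best known stood low. Of 15 T cell and innate lymphoid genes, 4 passed the filter, of which 2 were higher and 1 lower, beside 21.5% and 22.7% of all genes tested. *Lck*, a T cell kinase (0.612 to 5.92 CPM, adjusted p = 0.000562), and *Il7r*, a cytokine receptor (0.351 to 2.27 CPM, adjusted p = 0.0221), were higher and *Cd247*, the zeta chain of the T cell receptor complex (10.1 to 5.68 CPM, adjusted p = 0.0187), lower in edgeR. The T cell receptor genes *Cd3e*, *Cd3d* and *Cd3g* had 0 to 6 counts in any library. The summed level of the list was 10.4 to 15.7 CPM in WT and 15.4 to 23.5 CPM in VC libraries, and the part of such cells in the rise of *Gata3* was not tested.

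Within the GATA family the mixture differed between the groups, whose libraries did not overlap in any of the 3 shares. As shares of one sum, a fall of one raises the others. Of the summed FPKM of *Gata1*, *Gata2* and *Gata3*, *Gata2* held 75.3% ± 3.51 in WT and 57.0% ± 2.45 in VC libraries (SD, n = 3), *Gata1* 18.3% to 23.5% and 26.6% to 30.6%, and *Gata3* 3.76% ± 1.03 and 14.9% ± 0.409. The sum itself went from 341.8 ± 43.1 to 274.7 ± 26.3 FPKM, with a highest VC library (299.0) just under the lowest WT library (300.5). The log2 ratio of *Gata1* to *Gata2*, the pair that exchange places on chromatin during red cell maturation, was -2.12, -1.81 and -1.62 in WT and -1.10, -0.83 and -1.15 in VC libraries. The groups did not overlap, with a difference of 0.83. The 2-sided exact permutation p was 0.1, the smallest that 3 against 3 libraries allow. As *Gata1* was not called (log2 fold change 0.12), the shift of this ratio lies mostly in the fall of *Gata2* (-0.71).

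**Figure D2:**
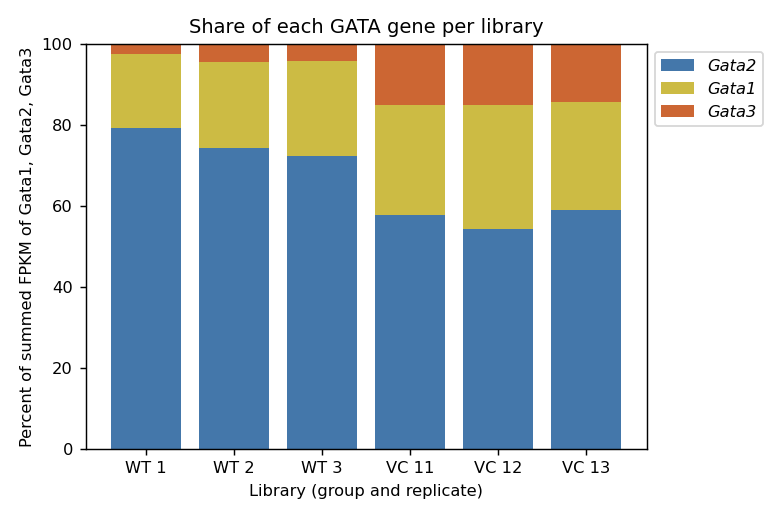
Share of Gata2, Gata1 and Gata3 in their summed FPKM, in percent (vertical axis), for each library (horizontal axis, group and replicate number). Gata2 holds 72.3% to 79.2% in the WT Phf6,RE9a libraries and 54.2% to 59.0% in the VC Phf6,RE9a libraries, and Gata3 goes from 2.58% to 4.50% up to 14.4% to 15.2%.

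*Zfpm1* (chromosome 8, 122282141 to 122337251), for the GATA1 partner FOG1, had 84.7, 76.5 and 89.9 CPM in *WT Phf6,RE9a* cells and 124.6, 137.6 and 98.6 CPM in *VC Phf6,RE9a* cells. VC replicate 13 was the lowest of its group and lay close above the highest WT library. The log2 fold change was 0.52 (95% interval 0.22 to 0.83, edgeR adjusted p = 0.0149). The call was lost without VC replicate 11 (0.50, adjusted p = 0.0525) and without VC replicate 12 (0.42, adjusted p = 0.0551).

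Among the members that form the TAL1 complex, *Tal1* and *Lyl1* changed less than *Lmo2*. *Tal1* (chromosome 4, 115056426 to 115071755) had 431.6, 385.5 and 404.2 CPM in *WT Phf6,RE9a* cells and 338.2, 368.0 and 335.9 CPM in *VC Phf6,RE9a* cells. The groups did not overlap, yet the log2 fold change of -0.23 (95% interval -0.43 to -0.02) did not pass the threshold (edgeR adjusted p = 0.0694). Without WT replicate 2 it did (-0.28, adjusted p = 0.0395). *Lyl1* (chromosome 8, 84701457 to 84704715), for the close relative of TAL1, had 138, 131 and 146 CPM in *WT Phf6,RE9a* cells and 109.5, 106 and 118 CPM in *VC Phf6,RE9a* cells. The VC libraries lay under the WT libraries by a small margin, and the log2 fold change was -0.31 (95% interval -0.51 to -0.12, edgeR adjusted p = 0.0180). The *Lyl1* call was lost without VC replicate 11 (-0.30, adjusted p = 0.0806) and without VC replicate 12 (-0.28, adjusted p = 0.0811). *Lyl1* lies inside the span of *Nfix* on the opposite strand, which had 266 to 573 counts.

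*Lmo2* (chromosome 2, 103957986 to 103981878) had 72.8, 91.7 and 107 CPM in *WT Phf6,RE9a* cells and 311, 352 and 333 CPM in *VC Phf6,RE9a* cells. Every VC library was far above every WT library. The mean rose from 90.4 ± 16.9 to 332 ± 20.7 CPM (SD, n = 3), the largest change of the 10 genes, at 3.68-fold (log2 fold change 1.88, 95% interval 1.55 to 2.21, edgeR adjusted p = 8.62e-05). The overlapping gene *4931422A03Rik* on the opposite strand had 57 to 67 counts in WT and 140 to 162 counts in VC libraries. Per length, the ratio of *Lmo2* to the sum of *Tal1* and *Lyl1* was 0.192, 0.263 and 0.284 in WT libraries and 1.04, 1.14 and 1.08 in VC libraries. The share of *Tal1* in that sum barely moved, at 54.7% ± 1.46 in WT and 56.2% ± 2.51 in VC libraries (SD, n = 3).

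The erythroid factor *Klf1* (chromosome 8, 84901928 to 84905291) had 61.7, 57.2 and 76.7 CPM in *WT Phf6,RE9a* cells and 154, 157 and 162 CPM in *VC Phf6,RE9a* cells. The VC libraries were tightly grouped and all above the WT libraries. *Klf1* rose 2.42-fold (log2 fold change 1.27, 95% interval 1.00 to 1.54, edgeR adjusted p = 0.000179).

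*Nfe2* (chromosome 15, 103248212 to 103258403), for the large subunit of NF-E2, had 91.1, 72.4 and 111 CPM in *WT Phf6,RE9a* cells and 220.2, 221 and 239 CPM in *VC Phf6,RE9a* cells. Its groups were also well apart. The rise was 2.48-fold (log2 fold change 1.31, 95% interval 0.96 to 1.66, edgeR adjusted p = 0.000463). *Gfi1b* (chromosome 2, 28609450 to 28621982) had 65.2, 60.8 and 86.1 CPM in *WT Phf6,RE9a* cells and 125, 136 and 121 CPM in *VC Phf6,RE9a* cells. WT replicate 3 was the highest WT library for *Gfi1b*, as it was for *Klf1*, *Nfe2*, *Lmo2*, *Gata1*, *Gata3*, *Zfpm1* and *Lyl1*. *Gfi1b* rose 1.80-fold (log2 fold change 0.85, 95% interval 0.53 to 1.16, edgeR adjusted p = 0.00214). Without WT replicate 3 the log2 fold changes were 1.40 for *Klf1*, 1.46 for *Nfe2* and 1.01 for *Gfi1b*, so each of these rises was larger when the library nearest to the VC libraries was left out.

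**Figure D3:**
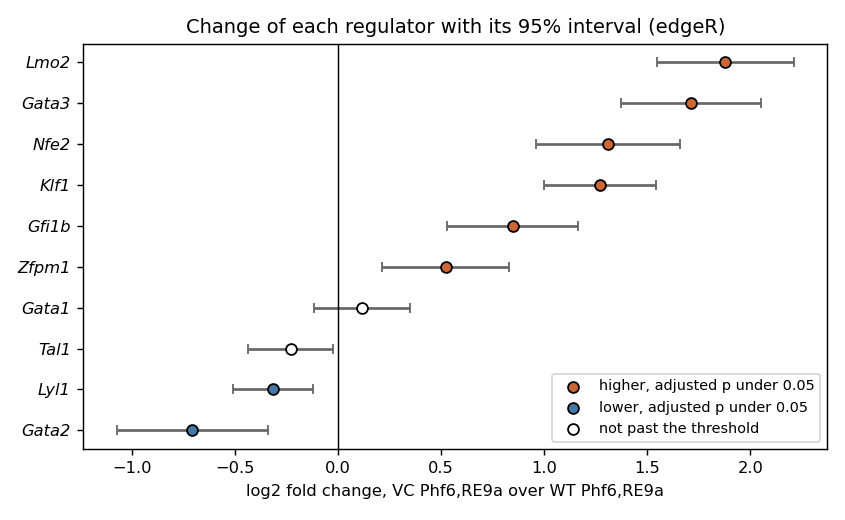
Log2 fold change of each regulator, VC Phf6,RE9a over WT Phf6,RE9a (horizontal axis), with its 95% interval from edgeR, coloured by the call at an adjusted p under 0.05. Lmo2 (1.88), Gata3 (1.71), Nfe2 (1.31) and Klf1 (1.27) lie to the right, Gata2 (-0.71) lies farthest to the left, and only the interval of Gata1 includes 0.

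The order of the levels, in FPKM, also differed between the groups. In *WT Phf6,RE9a* cells *Gata2* led with 258 ± 42.8 FPKM, followed by *Tal1* (92.4 ± 5.70), *Lyl1* (76.3 ± 3.86) and *Gata1* (71.2 ± 7.93), of which *Lyl1* and *Gata1* overlapped. *Klf1* (42.3 ± 6.49), *Lmo2* (41.4 ± 7.53), *Gfi1b* (38.4 ± 7.21), *Nfe2* (30.4 ± 6.40) and *Zfpm1* (23.7 ± 1.89) came next, each overlapping its neighbour, and *Gata3* was lowest at 12.6 ± 2.26 FPKM (SD, n = 3). In *VC Phf6,RE9a* cells *Gata2* (157 ± 21.5) and *Lmo2* (151 ± 9.89) overlapped at the top, and *Klf1* (101.6 ± 2.19) came after them. *Tal1* (78.3 ± 4.45), *Gata1* (76.8 ± 2.37), *Nfe2* (75.0 ± 3.22) and *Gfi1b* (68.7 ± 4.43) followed, each overlapping the next. *Lyl1* (61.0 ± 3.20) stood apart from its neighbours, and *Gata3* (40.9 ± 3.13) and *Zfpm1* (33.9 ± 5.78) overlapped at the bottom (SD, n = 3). *Lmo2* thus went from rank 6 to rank 2 and *Lyl1* from rank 3 to rank 8. Even the lowest of these levels, *Gata3* in WT libraries, was above 81.2% of genes with reads.

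**Figure D4:**
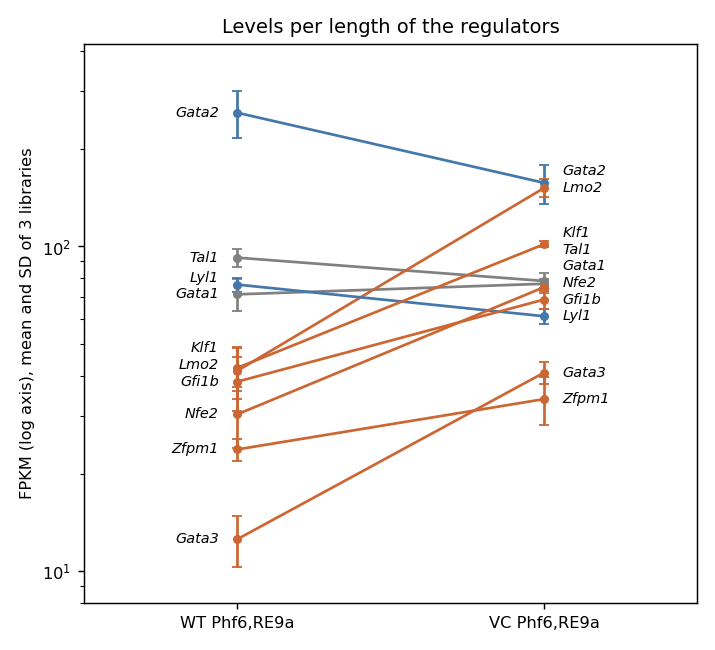
Mean FPKM with SD over 3 libraries (vertical log axis) of each regulator in WT Phf6,RE9a (left) and VC Phf6,RE9a (right) cells. Lines are orange for genes that were higher, blue for genes that were lower and grey for genes not called at an edgeR adjusted p under 0.05. The Lmo2 line climbs from 41.4 to 151 FPKM, up to Gata2, which falls from 258 to 157 FPKM.

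Genes listed as complex partners of these regulators moved in both directions. Besides bound partners, the list held *Lmo4*, a relative of *Lmo2*, and *Bach1*, *Nfe2l1* and *Nfe2l2*, relatives of *Nfe2*. Of these relatives, *Bach1* was called higher and the others lower. Of the 23 listed genes, 22 were tested, 6 were higher and 9 lower, beside 21.5% and 22.7% of all genes tested. The median log2 fold change was -0.26. *Ldb1*, whose protein binds LMO2, went from 298 ± 14.7 to 409 ± 9.04 CPM (log2 fold change 0.46, edgeR adjusted p = 0.0034). *Tcf3*, which encodes the E-proteins E12 and E47, went from 179 ± 6.91 to 245 ± 8.04 CPM (0.45, adjusted p = 0.00283). The E-protein gene *Tcf4* rose from 1.21 ± 1.00 to 40.3 ± 7.27 CPM, a log2 fold change of 5.03 (adjusted p = 0.000158). *Lmo4*, a relative of *Lmo2* that also binds LDB1, fell from 66.1 ± 14.2 to 8.89 ± 1.16 CPM (log2 fold change -2.89, adjusted p = 4.95e-05), and the ETS factor gene *Erg* from 43.5 ± 5.12 to 9.94 ± 2.40 CPM (-2.13, adjusted p = 0.000156). *Runx1*, whose protein shares target sites with GATA2 and TAL1, stood at 875 ± 65.3 and 726 ± 11.3 CPM and was not called (-0.27, edgeR adjusted p = 0.0547). RE9a also holds a part of RUNX1, so reads of the retroviral transcript may be counted under *Runx1*, which was not tested.

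Of 11 relatives of the 10 genes that are not in the partner list, 9 had too few counts to test. *Gata4*, *Gata5*, *Lmo3* and *Nhlh2* were at 0 in all 6 libraries, and 2 of the 11 had enough counts to test. *Gfi1*, the relative of *Gfi1b* that acts in granulocytes and lymphoid cells, fell from 42.4 ± 13.4 to 3.78 ± 1.27 CPM (log2 fold change -3.48, edgeR adjusted p = 0.000194) while *Gfi1b* rose. In WT libraries *Gfi1* had 485 to 827 counts and in VC libraries 39 to 78. *Nfe2l3*, a relative of *Nfe2*, was at 1.80 ± 0.146 and 3.51 ± 0.560 CPM (0.96, adjusted p = 0.0201).

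*Spi1* encodes PU.1, a granulocyte-monocyte factor that can oppose GATA factors, depending on the cell type. It had 82.4 ± 10.4 CPM in WT and 94.9 ± 10.2 CPM in VC libraries and was not called (log2 fold change 0.20, edgeR adjusted p = 0.207). The log2 ratio of *Spi1* to *Gata2* in FPKM was -3.13, -2.99 and -3.12 in WT and -2.06, -2.10 and -2.36 in VC libraries. As *Spi1* was not called, the shift of this ratio lies mostly in the fall of *Gata2* (log2 fold change -0.71). The difference of 0.91 between non-overlapping groups had a two-sided exact permutation p = 0.1, the smallest possible, which adjustment over the 2 ratios tested leaves at 0.1. Of the 7 granulocyte-monocyte factors, 3 were higher and 1 lower, where 21.5% and 22.7% of all genes tested were. The lower gene was *Gfi1* (log2 fold change -3.48, edgeR adjusted p = 0.000194), which is also counted among the relatives above. *Cebpe*, for a factor of late granulocyte maturation, went from 0.709 ± 0.511 to 6.94 ± 2.80 CPM (log2 fold change 3.26, adjusted p = 0.00263) and *Cebpa* from 1.49 ± 0.772 to 5.79 ± 2.26 CPM (1.94, adjusted p = 0.0103), while *Cebpb* stood at 15.5 and 14.7 CPM (adjusted p = 0.905).

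Genes of the red cell lineage, among them well-known targets of GATA1, TAL1 and KLF1, mostly rose. Of 34 listed genes 33 were in the table and 32 were tested. Of these, 29 were higher, 1 lower and 2 not called, with a median log2 fold change of 1.36, beside 21.5% higher among all genes tested. Beta-globin *Hbb-bs* went from 1257 ± 287 to 2370 ± 174 CPM (log2 fold change 0.92, edgeR adjusted p = 0.00461), and alpha-globin *Hba-a1* from 316 ± 99.5 to 1620 ± 116 CPM (2.36, adjusted p = 0.000225). *Hba-a2* (2.64, adjusted p = 0.00216) shares near-identical sequence with *Hba-a1*, so the split between them is uncertain. *Slc4a1*, the band 3 anion exchanger of the red cell membrane, rose from 75.2 ± 31.6 to 655 ± 160 CPM (3.12, adjusted p = 0.000328). *Cldn13*, a mouse erythroblast gene, rose from 32.0 ± 12.9 to 184 ± 24.8 CPM, and *Car1*, red cell carbonic anhydrase, from 429 ± 103 to 904 ± 88.4 CPM. The gene that fell was *Tspo2* (60.8 to 40.9 CPM, adjusted p = 0.00821), and the genes not called were *Add2* and *Klf3*. These 3 were named after their values were seen, because they are the exceptions. The summed level of the list was 4291 to 5888 CPM in WT and 12439 to 13705 CPM in VC libraries. In bulk libraries more cells of a type and more RNA per cell cannot be told apart, and the part of erythroid cells in the rise of *Klf1*, *Nfe2*, *Gfi1b*, *Zfpm1* and *Lmo2* was not tested.

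Mast cell and basophil genes, many of them targets of GATA2, were lower together with *Gata2*. All 25 were tested, 21 were lower, 2 higher and 2 not called, with a median log2 fold change of -2.58, beside 22.7% lower among all genes tested. Several were mast cell proteases. *Cpa3* fell from 6749 ± 1507 to 274 ± 116 CPM (log2 fold change -4.62, edgeR adjusted p = 0.000103), *Cma1* from 3631 ± 1095 to 72.7 ± 17.6 CPM (-5.64, adjusted p = 3.23e-05) and *Tpsab1* from 577 ± 186 to 7.45 ± 8.30 CPM (-6.27, adjusted p = 0.000579). *Tpsb2* fell from 3220 ± 838 to 17.8 ± 28.7 CPM, with VC counts of 7, 874 and 36, so its VC mean rests on replicate 12. *Fcer1a*, the IgE-binding chain of the IgE receptor, fell from 603 ± 166 to 5.30 ± 0.169 CPM (-6.83, adjusted p = 1.87e-05). The beta chain of that receptor, *Ms4a2*, stood at 1180 ± 96.2 and 1076 ± 215 CPM and was not called (adjusted p = 0.519), and *Cd200r3* (adjusted p = 0.0395) and *Fcer1g* (adjusted p = 0.00662) were the genes that were higher. These 3 too were named after their values were seen. The list summed to 27151 to 42529 CPM in WT and 8845 to 9717 CPM in VC libraries. *Gata2* fell 1.63-fold over the same libraries, and the part of mast-like cells in its fall was not tested.

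Megakaryocyte genes split. Of 20, 12 were tested, 5 were higher and 6 lower, beside 21.5% and 22.7% of all genes tested, and the median was -0.79 on the log2 scale. *Itga2b*, the platelet integrin chain CD41, fell from 237 ± 64.3 to 14.3 ± 0.124 CPM (-4.05, edgeR adjusted p = 2.84e-05), *Itgb3*, its partner chain, from 25.2 ± 15.1 to 2.53 ± 1.06 CPM (-3.31, adjusted p = 0.00223), *Plek* from 1039 ± 273 to 258 ± 50.5 CPM (-2.01, adjusted p = 0.000445) and *Rab27b* from 446 ± 69.6 to 109 ± 9.19 CPM (-2.03, adjusted p = 5.09e-05). *Gp5*, a platelet glycoprotein, rose from 107.3 to 174.5 CPM (0.70, adjusted p = 0.00439). *Gp9* was called higher from 3, 2 and 0 counts in WT and 16, 21 and 24 counts in VC libraries. The defining platelet genes *Pf4*, *Ppbp* and *Vwf* had 0 to 35 counts in any library, and *Gp1bb* was at 0 in all.

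Eosinophil genes, a further lineage of GATA1, were low but higher in VC libraries. Of 10 tested, 7 were higher (21.5% of all genes tested were), 0 lower and 3 not called, with a median of 3.04 on the log2 scale and a summed level of 55.7 to 78.2 CPM in WT and 143 to 209 CPM in VC libraries. *Siglecf*, an eosinophil surface lectin, went from 44.5 ± 8.85 to 84.6 ± 12.7 CPM (0.93, edgeR adjusted p = 0.00338). *Prg2*, eosinophil major basic protein, went from 3.46 ± 2.64 to 30.1 ± 21.2 CPM (3.11, adjusted p = 0.00794) and *Alox15* from 0.869 ± 0.508 to 19.9 ± 8.12 CPM (4.50, adjusted p = 0.000466). *Epx*, eosinophil peroxidase, had 4, 2 and 19 counts in WT and 91, 246 and 70 in VC libraries, and *Prg3* had 0, 0 and 3 counts in WT and 65, 78 and 38 in VC libraries.

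**Figure D5:**
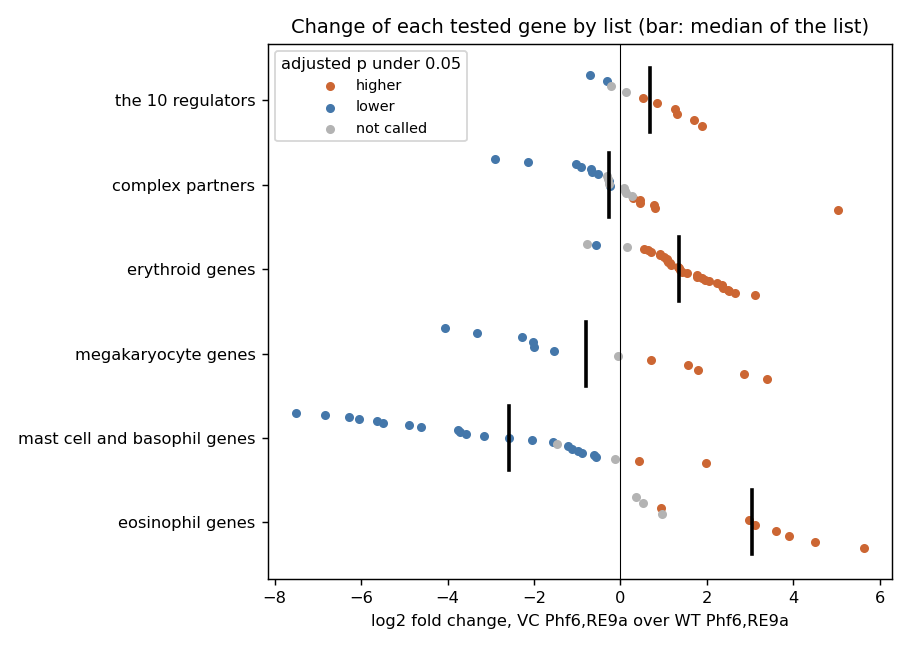
Log2 fold change, VC Phf6,RE9a over WT Phf6,RE9a (horizontal axis), of each tested gene of the 10 regulators and of 5 gene lists (rows), coloured by the call at an edgeR adjusted p under 0.05, with the median of each list as a black bar. The medians are 0.69 for the regulators, -0.26 for complex partners, 1.36 for erythroid genes, -0.79 for megakaryocyte genes, -2.58 for mast cell and basophil genes and 3.04 for eosinophil genes.

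Markers of other cells that the GFP+ gate could hold were read at low levels. A limit of 3 counts comes to 0.178 to 0.191 CPM of the raw library totals, without the TMM scaling of the other values. Of 9 B cell genes 5 were tested and 4 were higher, beside 21.5% of all genes tested, among them *Pax5* (0, 0 and 6 counts in WT, 113, 110 and 20 in VC libraries) and the B cell receptor chains *Cd79a* (0.415 to 3.94 CPM) and *Cd79b* (0.251 to 4.29 CPM). The B cell list summed to 3.57 to 5.36 CPM in WT and 10.3 to 30.9 CPM in VC libraries. Of 12 macrophage genes 9 were tested and 2 were higher, a share close to the 21.5% over all genes tested, *Vcam1* (4.38 to 12.7 CPM, edgeR adjusted p = 0.00503) and *Mertk* (0.410 to 0.922 CPM, adjusted p = 0.0409), while *Hmox1*, *C1qa* and *C1qb* were not called, and the list summed to 17.5 to 32.8 CPM in WT and 36.7 to 40.9 CPM in VC libraries. Their part in the levels of the 10 regulators was not tested.

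The genes whose log2 CPM ran most like that of *Gata1* over the 6 libraries were *Mmgt1* (Pearson's r = 0.998), *Hmgb1* (0.993) and *Naa15* (0.990), among 9042 genes with a mean of at least 10 CPM. Those most like *Gata2* were *Tmem44* (0.999), *Arap3* (0.998) and *Alox5* (0.996), the last a leukotriene synthesis gene of mast cells and granulocytes that fell with *Gata2* (1061 to 570.4 CPM, log2 fold change -0.90). These correlations describe 6 libraries of 2 groups, whose group difference and library scaling all genes share, and they were picked as the highest of many.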

How the data were processed

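Expression in *WT Phf6,RE9a* and *VC Phf6,RE9a* cells (3 libraries each) was taken from 1 deposited table of 54532 Ensembl genes. It holds read counts, which the authors did not normalize, and FPKM, which the authors scaled by the table's gene length and by a library size other than the column total. The deposited results of the authors' own comparison (mean normalized counts as a signal, log2 fold changes and p-values) were not used. The submitters' processing notes name Bowtie 0.12.0 and mm8. However, 98.33% of the 54409 genes with an identifier in GENCODE M21 (GRCm38) had the same coordinates there, so positions are those of the table, on GRCm38. The counting tool and its strand setting are not given in the sources used here, and values of a gene with an overlapping or near-identical neighbour are uncertain. Transcripts of RE9a and GFP and the erythroid gene *Ahsp* were not analysed here.

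Each library counted as a replicate. The chi-square per gene between libraries of a group (11.8 to 46.4) was above counting noise, so none is a copy of another, which does not show that they come from separate leukemias. Limits of detection cover counting error only, because the reads carry no molecular identifiers. Genes passing filterByExpr of edgeR 4.0.16 (R 4.3.3) were scaled by TMM and fitted by its quasi-likelihood method, with Benjamini-Hochberg adjustment at 0.05. The standard error is the log2 fold change over the square root of F. The fits were tested on simulated data. Log2 CPM for likeness used a prior count of 2. Alternatives were DESeq2 1.42.0, RLE size factors, no filter on counts, a minimum of 10 counts in every library, limma 3.58.1 on log2(FPKM + 1) and on log2(FPKM + 0.1), omission of each library in turn, an adjusted p under 0.01 and a change of at least 2-fold. Plots were made in Python 3.11.15 with matplotlib 3.10.9.

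The members, the 10 other lists and the tests were chosen with earlier results of these data known, and the promoter letters after the counts were seen. The rule for named genes takes the 10 regulators and *Phf6*, per list the 3 genes highest in mean FPKM and the 3 called genes with the largest change, and the 3 genes most correlated with *Gata1* and with *Gata2*. Some genes of the lists are not reported here. Overlapping genes, genes at 0, defining markers and exceptions were named besides.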

Additional observations from a re-analysis of the deposited data

How the results depend on the processing

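Over 12 alternatives none of the 10 regulators or *Phf6* changed direction, and 8 of these 11 genes kept their side of the threshold in all of them. The exceptions were *Zfpm1*, *Lyl1* and *Tal1* when a library was left out, where the log2 fold changes ran from 0.42 to 0.65, from -0.36 to -0.28 and from -0.28 to -0.19, with edgeR adjusted p from 0.00575 to 0.0551, from 0.0120 to 0.0811 and from 0.0395 to 0.2197. The number of regulators higher lay between 4 and 6 in every alternative. The number lower was 1 at an adjusted p under 0.01, 0 at a change of at least 2-fold, and 1 to 3 when a library was left out.

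Under an adjusted p of 0.01, 1690 of all tested genes rose and 2110 fell, and the counts were 0 relatives higher, 2 megakaryocyte and 1 mast cell genes higher, 1 T cell gene higher and 0 lower, and 1 macrophage gene higher. At a change of at least 2-fold, 1410 genes were higher and 1625 lower. In the partner list, 1 gene was higher and 3 lower. Besides these, 0 relatives and 1 mast cell gene were higher, and 0 erythroid and 0 T cell genes were lower. With at least 10 counts in every library the genes called higher were 3 megakaryocyte, 3 eosinophil, 0 T cell, 0 B cell and 1 macrophage gene. DESeq2 and the fit with no count filter each called 7 B cell genes and 1 macrophage gene higher. Limma on log2(FPKM + 1) called 3 megakaryocyte genes and 1 macrophage gene higher, and limma on log2(FPKM + 0.1) called 1 macrophage gene higher. When each library was left out in turn, the genes called higher were 0 to 1 relatives, 3 to 6 megakaryocyte, 1 to 2 mast cell, 1 to 5 T cell, 4 to 8 B cell and 1 to 4 macrophage genes, and those called lower were 1 to 2 erythroid, 0 to 1 T cell and 0 to 1 macrophage genes. Single libraries set these ends. Without VC replicate 13, 8 B cell and 5 T cell genes were higher, and without VC replicate 12, 3 megakaryocyte genes were higher, 2 erythroid genes lower and 0 T cell genes lower. Without WT replicate 2, 4 macrophage genes were higher, and without WT replicate 3, 1 was lower. Without WT replicate 1, VC replicate 11 or VC replicate 12, 0 relatives and 1 T cell gene were higher, without WT replicate 2 or 3 or VC replicate 11 or 13, 1 mast cell gene, and without any library other than WT replicate 2, 1 macrophage gene. A stricter threshold or filter lowers such counts by construction. The causes of the other differences were not tested.

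No paired analysis was possible because the groups share no replicate numbers. Genes under about 3 counts per library could not be compared at this depth.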
